A study of Homo sapiens with 6 samples.

Results

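The tripartite motif (TRIM) family was read across RNA-seq libraries of TPC1 cells. Its members were the genes of the deposited count table whose symbol is TRIM or TRIML followed by a number, leaving out pseudogenes, read-through names with a hyphen and antisense names. The rule found 57 of 21173 genes. TPC1 is an established human line of papillary thyroid cancer in which RET is fused to another gene. The 3 control libraries came from TPC1 cells with a vector, labelled wild type, and the 3 others from TPC1 cells made to overexpress TFCP2L1. That protein is a DNA-binding factor of the grainyhead and CP2 family. How the vector entered the cells, for how long, and whether each line was 1 clone are not given in the sources used here.

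Most TRIM proteins are ubiquitin ligases built from a RING finger, B-boxes and a coiled coil, and differ in the domain at their C-terminal end, which binds the target. Some lack the RING and act as adaptors. Many members are induced by interferon and take part in sensing or restricting viruses, others act in chromatin, microtubules or muscle. In thyroid cancer the family is known from gene fusions, since TRIM24, TRIM27 and TRIM33 occur as fusion partners of RET.

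Library totals ran from 37928516 to 38987434 reads, and between 17805 and 18102 genes had a read. The overexpressed gene, TFCP2L1, was read 0, 0 and 1 times with vector and 13578, 13885 and 12333 times in the cells made to express it. Reads of mitochondrial genes made up 5.14%, 6.72% and 5.13% of the vector libraries 1 to 3 and 5.19%, 5.80% and 7.59% of the TFCP2L1 libraries 1 to 3. Of the thyroid markers, PAX8 was well read while TG lay near 1 CPM (a count scaled to library size) and SLC5A5 had 0 reads with vector and 6 with TFCP2L1. The summed level of the 5 thyroid markers in the table was 137 to 148 FPKM with vector and 121 to 142 with TFCP2L1. Of 6 epithelial markers, KRT8, KRT18 and KRT7 passed 1 FPKM. KRT7 was lower with TFCP2L1, at 4.69 ± 1.16 CPM against 9.15 ± 0.992 with vector (log2 -0.96 ± 0.18, edgeR adjusted p 0.00202), and KRT8 and KRT18 did not pass (log2 -0.04 and -0.08). The other 3 were barely read: KRT19 had 1 read with vector and 14 with TFCP2L1, EPCAM 22 and 6, and CDH1 1 and 0. Summed leukocyte markers (3 of 5 in the table) lay between 0.217 and 0.373 FPKM with vector and between 0.0637 and 0.205 with TFCP2L1, and fibroblast markers (3 of 4) between 1.16 and 1.54 and between 0.790 and 1.09. No label says that the replicates are separate cultures. The p-values therefore reflect only the spread among these libraries, which may be technical. In bulk RNA, fewer cells of a type and less RNA per cell cannot be told apart.

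Per unit of length, the family was led by TRIM28, the corepressor that KRAB zinc-finger proteins recruit to chromatin. Levels here are in FPKM, which scales reads to gene length and library total, as mean ± SD of 3 libraries. TRIM28 stood at 56.6 ± 5.06 with vector and 64.5 ± 8.80 with TFCP2L1, and made up 14.78% and 15.04% of the summed family level. TRIM8, a regulator of STAT3, NF-kappaB and p53 signalling, came next at 30.3 ± 1.35 and 38.9 ± 3.82. The length behind the TRIM8 value was 2760 bases, while GENCODE v29 gives its merged exons 9542 bases. Lengths differed in the same direction for TRIM27 (2963 against 7986), TRIM11 (2714 against 8493) and TRIM25 (5745 against 9501). For TRIM55 the direction was opposite (4237 against 3081), and for TRIM21 the lengths were close (1935 against 1929). The order of these members and the shares of the summed level therefore depend on the gene model.

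Below these, TRIM26 had a level of 25.6 ± 0.239 FPKM with vector, and TRIM27, also called RET finger protein, 23.0 ± 0.738. TRIM25 had 22.4 ± 0.158 and TRIM55, a protein of the muscle sarcomere, 21.5 ± 0.378. TRIM27 and TRIM25 differed by less than the SD of TRIM27, so their order is not settled. The muscle markers in the table (2 of 4) summed to 0.0995 to 0.280 FPKM with vector and 0.0757 to 0.123 with TFCP2L1. By the mean over all 6 libraries, TRIM32 and TRIM21 completed the 8 highest members, at 18.6 ± 0.888 and 14.9 ± 0.778 FPKM with vector. With vector alone TRIM11, at 15.03 ± 1.31, stood above TRIM21 by less than either SD. The 8 members ranked over all libraries held 55.6% of the summed family level with vector.

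Of the 57 members, 40 reached 1 FPKM and 12 reached 10 FPKM over all libraries. The median level of the tested members was 4.07 FPKM, against 5.25 FPKM for all tested genes. By domain class, the members listed under class C-IV, which end in a PRY-SPRY domain, held 46.4% of the family level with vector. Members without a RING, such as TRIM14 and TRIM16, and TRIML2 were listed apart whatever their C-terminal end. The class with PHD finger and bromodomain (C-VI) held 17.5% through only 3 genes. Members without a further C-terminal domain (C-V) held 11.02%.

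**Figure D1:**
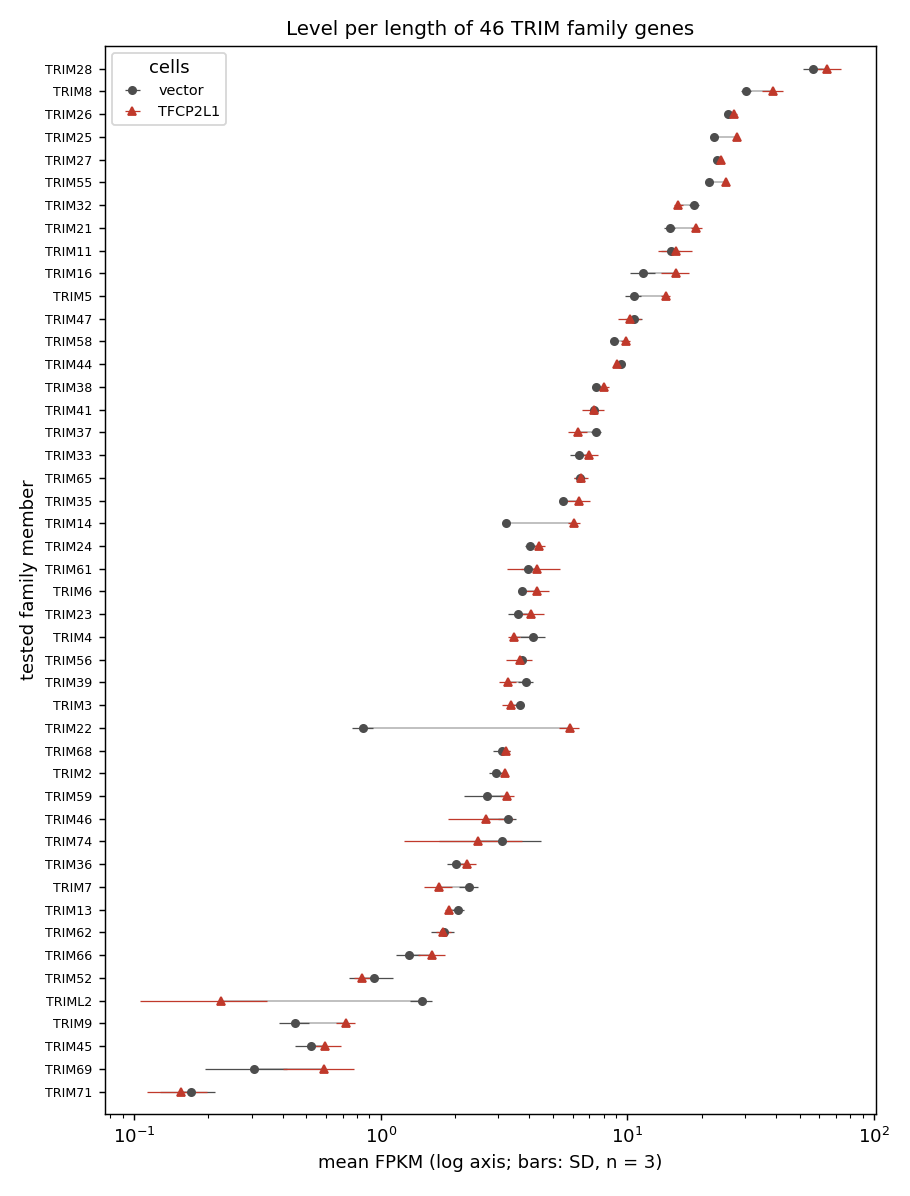
Mean level of the 46 tested members in FPKM on a log axis, circles for vector and triangles for TFCP2L1, with bars for the SD of 3 libraries. TRIM28 leads at 56.6 with vector, and TRIM22 stands at 0.848 with vector and 5.83 with TFCP2L1.

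After a filter on low counts, 46 members were tested with edgeR's quasi-likelihood F-test, adjusted by the Benjamini-Hochberg method over 14431 genes. The other 11 had too few reads. At an adjusted p under 0.05, 8 members were higher with TFCP2L1 (TRIM22, TRIM14, TRIM9, TRIM16, TRIM5, TRIM8, TRIM21 and TRIM25) and 2 were lower (TRIML2 and TRIM7). That is 21.7% of the tested members, beside 11.6% of all tested genes. In the higher direction all tested genes gave 4.63% and in the lower direction 6.94%. The median log2 fold change was 0.08 over the members and 0.00 over all genes, and the median size was 0.17 and 0.16. Most members moved little: 27 of 46 had a log2 fold change under 0.2 in size. The 36 members that did not pass ran from -0.34 (TRIM74) to 0.92 (TRIM69), both with wide errors.

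Among the 10 called members, TRIM22 and TRIML2 changed by 2-fold or more. Of all 1670 called genes, 320 did so. In 10 of the 46 all 3 TFCP2L1 libraries lay above all 3 vector libraries and in 7 all lay below. Of all tested genes 14.4% and 15.6% did so, 30.0% in either direction. The summed level of the family was 384, 379 and 386 FPKM with vector and 441, 422 and 424 FPKM with TFCP2L1. The groups did not overlap in that sum. The 10 called members together went from 98.0 to 130 FPKM. They were picked by their difference between these same libraries, so that sum is no separate result.

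**Figure D2:**
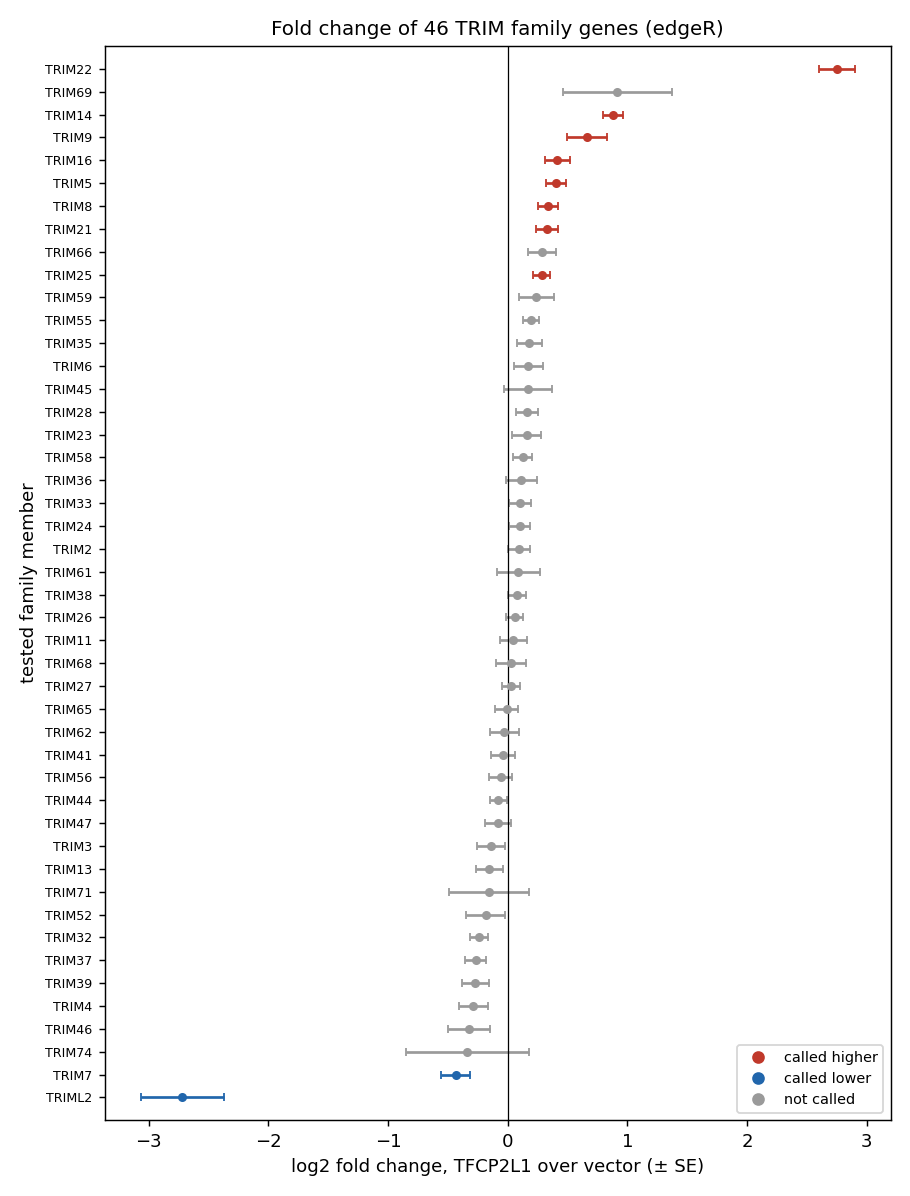
Log2 fold change of each tested member (TFCP2L1 over vector), with bars of 1 SE, ordered by size and coloured by call. TRIM22 at 2.75 and TRIML2 at -2.72 stand at the ends and most members lie near 0.

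Members linked to interferon were the role group with the most calls. Of 10 such genes, 9 were tested and 5 were higher with TFCP2L1 (TRIM22, TRIM14, TRIM5, TRIM21 and TRIM25). None was lower by edgeR, by DESeq2 or by limma-voom, and 0 were lower at an unadjusted p under 0.05. That is 55.6% of those tested, beside 4.63% of all tested genes called higher and 11.6% called in either direction. The median log2 fold change of the 9 was 0.33. That list was drawn up with earlier results of these data known.

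TRIM22 is an interferon-induced ligase that restricts several viruses and is also known as a p53 target. In counts scaled to library size (CPM, with TMM factors), it had 2.68, 2.52 and 2.21 with vector and 17.2, 17.9 and 14.98 with TFCP2L1. Every TFCP2L1 library lay far above every vector library. The log2 fold change was 2.75 ± 0.15 (SE), a 6.74-fold rise, with an edgeR adjusted p of 6.53e-09. It ranked 12th of the 668 genes called higher. The gene lies on GRCh38 chromosome 11 from 5689689 to 5737089 on the plus strand, and 10.7% of its exon bases overlap OR56B1 on the same strand.

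TRIM14 lacks a RING and works as an adaptor in antiviral signalling at mitochondria. Its CPM values were 32.2, 33.4 and 33.7 with vector and 59.2, 58.6 and 65.3 with TFCP2L1. The groups stood well apart. The rise was 1.84-fold (log2 0.88 ± 0.08, edgeR adjusted p 2.43e-06). NANS, on the opposite strand, overlaps 7.72% of its exon bases, and the strand setting of the counting is unknown. It lies on chromosome 9 from 98069275 to 98119212, minus strand.

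TRIM5 binds the capsid of incoming retroviruses. It had 43.7, 49.1 and 50.6 CPM with vector and 60.0, 63.9 and 65.9 with TFCP2L1. The lowest TFCP2L1 library exceeded the highest vector library. The edgeR adjusted p was 0.00449, at a log2 rise of 0.40 ± 0.08. The annotated span, on chromosome 11 from 5663557 to 5938619 on the minus strand, contains TRIM22 on the other strand.

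TRIM25 attaches ubiquitin to the RNA sensor RIG-I. Its replicates were tight, at 130, 130 and 130 CPM with vector and 159, 158 and 158 with TFCP2L1. The log2 fold change was small, 0.28 ± 0.07, with an edgeR adjusted p of 0.0119. The adjusted p was 0.0664 without vector replicate 1 and 0.0665 without vector replicate 3, at log2 fold changes of 0.283 and 0.286. The gene is on chromosome 17 from 56836387 to 56914080, minus strand.

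TRIM21 is the cytosolic receptor for antibody-coated viruses. It had 29.4, 27.5 and 30.1 CPM with vector and 37.4, 37.5 and 34.6 with TFCP2L1. The groups did not overlap, and the log2 fold change was 0.33 ± 0.09 with an edgeR adjusted p of 0.0249. That call was lost without vector replicate 1 (0.0871), vector replicate 2 (0.108), vector replicate 3 (0.0715) or TFCP2L1 replicate 1 (0.0783). TRIM21 lies on chromosome 11 from 4384897 to 4393696, minus strand.

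The other tested interferon-linked members, 4 in number, did not pass. TRIM26 had 91.7 ± 1.301 and 95.4 ± 2.68 CPM (log2 0.06 ± 0.07, edgeR adjusted p 0.666). TRIM38, a regulator of innate immune signalling, had 72.6 ± 0.900 and 76.8 ± 4.13 CPM, and TRIM56, which acts on the DNA-sensing pathway, 41.5 ± 0.644 and 39.9 ± 4.71. TRIM69 was barely read, with 0.691, 0.319 and 0.606 CPM against 1.23, 1.17 and 0.652. Its log2 fold change was 0.92 ± 0.46 with an edgeR adjusted p of 0.229. TRIM34 had 0 reads with vector and 1 with TFCP2L1, and 83.0% of its exon bases are shared with the read-through gene TRIM6-TRIM34.

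**Figure D3:**
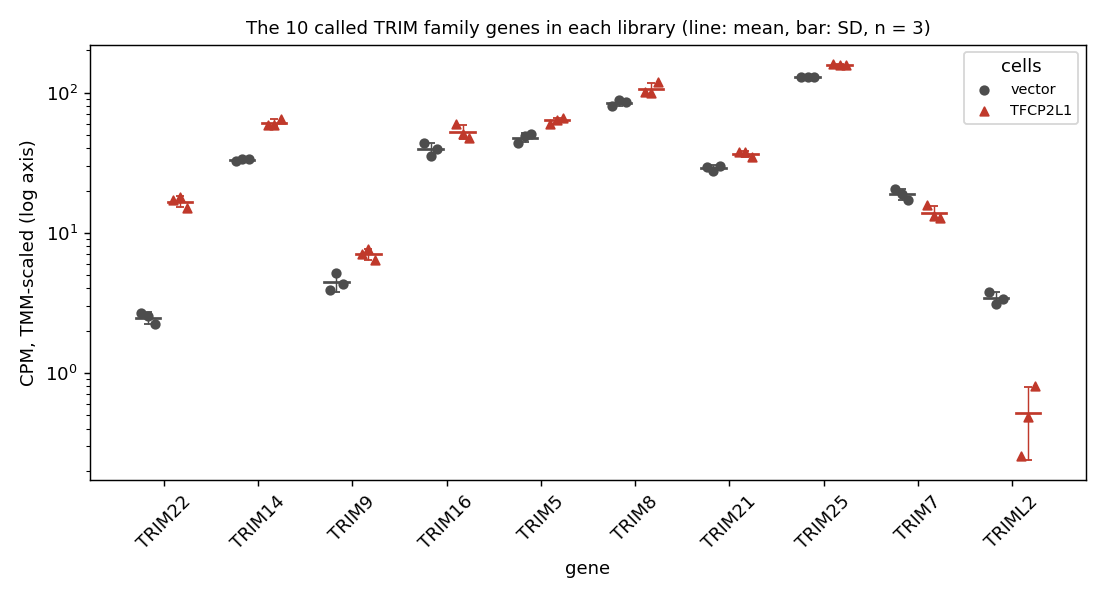
TMM-scaled CPM on a log axis in each library for the 10 called members, circles for vector and triangles for TFCP2L1, with lines for means and bars for SD. The groups do not overlap in any of them, which the selection by call favours, and TRIM22 and TRIML2 differ most.

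Promoter sequences of members were searched for the core of the interferon-stimulated response element, the site read by the factors that interferon activates. RefSeq windows (GRCh38.p14, from 250 bases before to 50 bases after each start) were found for 45 members, 64 windows in all. Of the 10 called members, TRIM22 and TRIM8 had none. The letters GAAANNGAAA, on either strand, occurred in 9 of the 64 windows (14.1%) and in 3.57% of 35116 windows of all genes. Stretches are printed for 4 called members with a match, for TRIM26 and TRIM69 as tested members with a match that were not called, and for TRIM25 and TRIML2 as called members without one. Each is written 5' to 3' on the strand of its gene, with matches in capitals. They are TRIM14 at chr9:98119223-98119372 (minus), TRIM5 at chr11:5685075-5685224 (minus), TRIM21 at chr11:4393663-4393692 (minus), TRIM16 at chr17:15682952-15683101 (minus), TRIM26 at chr6:30213457-30213606 (minus), TRIM69 at chr15:44736378-44736527 (plus), TRIM25 at chr17:56914050-56914199 (minus) and TRIML2 at chr4:188109604-188109753 (minus).
TRIM14: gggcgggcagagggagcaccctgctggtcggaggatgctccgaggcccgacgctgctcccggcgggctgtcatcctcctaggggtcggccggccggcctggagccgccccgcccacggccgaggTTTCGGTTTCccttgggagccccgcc
TRIM5: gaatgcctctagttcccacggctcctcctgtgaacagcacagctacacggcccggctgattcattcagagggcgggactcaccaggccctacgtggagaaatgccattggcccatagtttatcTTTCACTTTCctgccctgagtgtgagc
TRIM21: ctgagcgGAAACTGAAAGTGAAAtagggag
TRIM16: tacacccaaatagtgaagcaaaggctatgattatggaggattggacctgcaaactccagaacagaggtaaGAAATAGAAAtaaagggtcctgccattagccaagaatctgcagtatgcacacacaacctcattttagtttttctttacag
TRIM26: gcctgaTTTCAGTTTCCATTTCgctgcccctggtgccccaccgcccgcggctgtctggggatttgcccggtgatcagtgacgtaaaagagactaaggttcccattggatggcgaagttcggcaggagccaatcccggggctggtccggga
TRIM69: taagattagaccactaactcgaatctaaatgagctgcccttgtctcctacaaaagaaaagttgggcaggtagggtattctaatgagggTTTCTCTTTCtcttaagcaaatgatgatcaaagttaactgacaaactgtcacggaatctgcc
TRIM25: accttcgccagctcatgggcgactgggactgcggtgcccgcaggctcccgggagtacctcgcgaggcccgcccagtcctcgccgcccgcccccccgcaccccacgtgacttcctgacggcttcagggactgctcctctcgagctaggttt
TRIML2: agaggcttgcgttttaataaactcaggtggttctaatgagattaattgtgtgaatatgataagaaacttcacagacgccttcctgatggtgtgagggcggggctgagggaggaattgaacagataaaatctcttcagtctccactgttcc

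In TRIM14 and TRIM5 the match began 26 and 27 bases before the start. TRIM16 had it 80 bases before and TRIM69 62. The windows of TRIM16, TRIM5 and TRIM69 lie inside the spans that GENCODE v29 gives these genes, so any start further out was not searched. TRIM26 held 2 overlapping matches, the first 194 bases before its start, and TRIM21 2 just after its start. Of 8 tested members with the letters in a window, 4 were called higher (TRIM14, TRIM16, TRIM21 and TRIM5). The other 4, TRIM26 (log2 0.06), TRIM44 (-0.08), TRIM2 (0.09) and TRIM69 (0.92), were not called. Of 27 tested members with a window and no match, 2 were higher (TRIM25 and TRIM9) and 2 lower. Among all tested genes, 13% of 469 with a match and 4.47% of 10841 without were called higher. A match describes letters and not a bound site. The GAS letters TTCNNNGAA, another element of interferon signalling, occurred in 12.5% of member windows and 7.66% of all. Of 5 tested members with them 1 was higher and 1 lower, and of 30 without them 5 were higher and 1 lower. Among all tested genes, 6.68% with them and 4.65% without were higher. The paired letters bound by CP2 factors, CCNGNNNNNNCCNG, occurred in 53.1% of member windows and 39.4% of all windows. Of 23 tested members with that pattern 4 were higher and 1 lower, and of 12 without it 2 were higher and 1 lower. Over all tested genes, 4.92% of 6670 with it were higher and 7.32% lower, and 4.70% of 4640 without it were higher and 5.82% lower.

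Several members sit together on chromosome 11 at 11p15.4, where TRIM5, TRIM6, TRIM22 and TRIM34 are neighbours and TRIM5 and TRIM22 lie on opposite strands of overlapping spans. Of 7 listed genes there, 6 were tested and 3 were higher (TRIM22, TRIM5 and TRIM21), beside 4.63% of all tested genes. These 3 were also counted above as interferon-linked members. None of the 6 was lower by edgeR, DESeq2 or limma-voom, nor at an unadjusted p under 0.05. TRIM6, 76.7 kb from TRIM22, had 13.2 ± 0.242 and 14.9 ± 1.87 CPM (log2 0.17 ± 0.12, edgeR adjusted p 0.410). TRIM68, 1081 kb away, had 10.4 ± 0.884 and 10.6 ± 0.503 CPM, and TRIM3, a brain-enriched ligase, 12.5 ± 0.455 and 11.4 ± 0.879. TRIM21 lies 1296 kb from TRIM22. TRIM6 is the nearest tested neighbour whose span does not overlap TRIM22, and 29.3% of its exon bases are shared with TRIM6-TRIM34. TRIM66, 2875 kb away and outside the list, had a log2 fold change of 0.29 ± 0.12 with an edgeR adjusted p of 0.135, and was looked at after its values were seen.

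**Figure D4:**
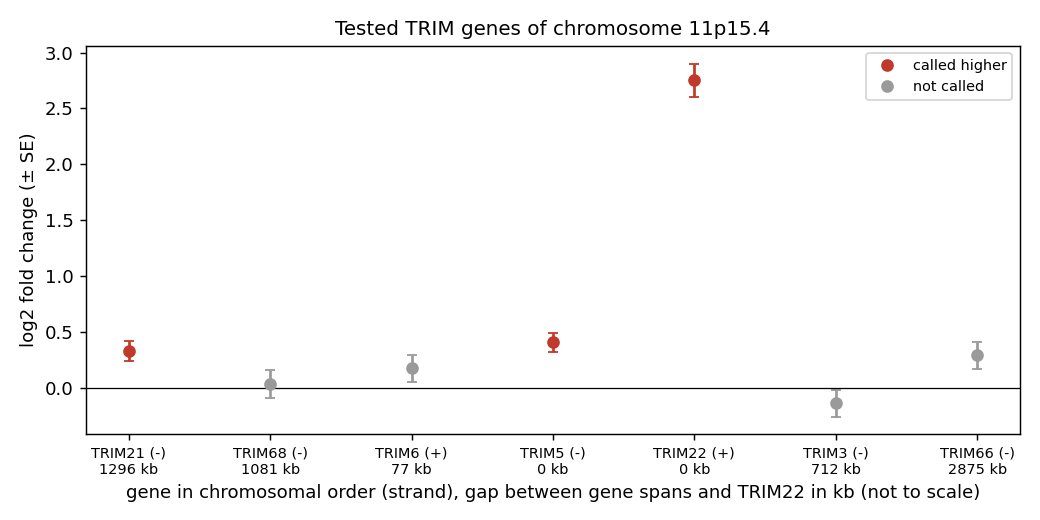
Log2 fold change (bars: 1 SE) of the tested members at 11p15.4, TRIM66 included, in chromosomal order with the gap to TRIM22 in kb, not to scale. TRIM22 stands at 2.75, and the others lie between -0.14 and 0.40.

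Members linked to p53, as its targets or its ligases, went both ways. Of 8 listed genes 7 were tested. TRIM22 and TRIM8 were higher and TRIML2 was lower, 42.9% in all, beside 11.6% of all tested genes. The listed genes were chosen with earlier results of these data known, and the difference between these shares was not tested. TRIM22 was also counted above among the interferon-linked members and among the listed members of its chromosome region. TRIML2 is a short relative without a RING that is known as a p53 target. It had 142, 117 and 128 reads with vector and 10, 19 and 31 with TFCP2L1, or 3.77, 3.11 and 3.37 CPM against 0.256, 0.485 and 0.809. All vector libraries lay well above all TFCP2L1 libraries. It was 6.59-fold lower (log2 -2.72 ± 0.35, edgeR adjusted p 6.72e-05), 26th by size of the 1002 genes called lower. The gene is at 188091273 to 188109603 on chromosome 4, minus strand.

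TRIM8 had 80.2, 88.2 and 85.0 CPM with vector and 101, 99.1 and 119 with TFCP2L1. The edgeR adjusted p was 0.0159, at a log2 rise of 0.34 ± 0.08. The groups did not overlap, and TFCP2L1 replicate 3 was highest. The adjusted p was 0.0999 without vector replicate 1 and 0.0714 without vector replicate 3. A gene on the opposite strand overlaps 14.1% of its exon bases, on chromosome 10 from 102642310 to 102660680, plus strand.

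The other 4 tested members of that list did not pass. TRIM24, a p53 ligase and cofactor of nuclear receptors, had a log2 fold change of 0.10 ± 0.09. TRIM28 had 212, 180 and 205 CPM with vector and 245, 233 and 190 with TFCP2L1, so TFCP2L1 replicate 3 fell inside the vector range. Its edgeR adjusted p was 0.315 at a log2 difference of 0.16 ± 0.10, and 0.0320 once TFCP2L1 replicate 3 was left out. TRIM32, an NHL-domain ligase mutated in a muscular dystrophy, had 72.9 ± 3.12 and 61.7 ± 2.50 CPM, with no overlap, and a log2 fold change of -0.24 ± 0.08 whose edgeR adjusted p of 0.0554 just missed the threshold. TRIM13, a ligase of the endoplasmic reticulum, had -0.15 ± 0.11.

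TRIM16, an adaptor in the autophagy of damaged lysosomes, had 43.9, 35.1 and 39.4 CPM with vector and 59.7, 50.7 and 47.4 with TFCP2L1. The groups did not overlap, but the spread was wide. The log2 fold change was 0.41 ± 0.10 with an edgeR adjusted p of 0.0161, and it was 0.0687, 0.0731 and 0.0973 without vector replicate 2, vector replicate 3 and TFCP2L1 replicate 1. TRIM16 shares 42.0% of its 50-base words with other genes, mainly TRIM16L, so its counts are uncertain. It lies on chromosome 17 from 15627960 to 15684311, minus strand.

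TRIM9, a neuronal ligase of axon guidance in the COS-box class (C-I), was low in level and the 1 call among 3 tested members of its class. It had 3.90, 5.15 and 4.27 CPM against 7.07, 7.63 and 6.39. The log2 fold change was 0.66 ± 0.17 with an edgeR adjusted p of 0.0163. The call was lost without vector replicate 1 (0.0891), vector replicate 3 (0.0739), TFCP2L1 replicate 1 (0.0558) or TFCP2L1 replicate 2 (0.0508). TRIM9 lies on chromosome 14 from 50975262 to 51096061, minus strand.

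TRIM7, a ligase that binds glycogenin, was the other member called lower. It had 20.4, 18.8 and 17.1 CPM with vector and 15.8, 13.1 and 12.8 with TFCP2L1. The log2 fold change was -0.43 ± 0.12 with an edgeR adjusted p of 0.0275. Leaving out vector replicate 1 (0.147), vector replicate 2 (0.0641), TFCP2L1 replicate 2 (0.0696) or TFCP2L1 replicate 3 (0.0538) lost that call. The gene is on chromosome 5 from 181193924 to 181205293, minus strand.

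Classes without a call held members of many roles. In the chromatin class C-VI, TRIM28, TRIM24 and TRIM33, a cofactor of SMAD proteins, had log2 fold changes of 0.16, 0.10 and 0.10. In the NHL class, TRIM2 had 0.09 ± 0.09, and TRIM71, a stem-cell protein, -0.16 ± 0.34. TRIM71 was the lowest tested member at 0.170 FPKM with vector. The MATH-domain member TRIM37, whose loss causes mulibrey nanism, had 61.8 ± 2.96 and 51.3 ± 4.35 CPM. The log2 fold change was -0.27 ± 0.09 and its edgeR adjusted p of 0.0527 was the closest miss. The sarcomere member TRIM55 had 91.8 ± 2.04 and 105 ± 0.785 CPM, without overlap, and an edgeR adjusted p of 0.0880. The listed PRY-SPRY class (C-IV) had 5 calls among 20 tested members, 25%, beside 11.6% of all tested genes. TRIM14, TRIM16 and TRIML2, listed under other classes, are not in that count. TRIM65 of class C-IV had the largest unadjusted p of the family, with a log2 fold change of -0.01 ± 0.10.

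Of the 4 tested genes of the major histocompatibility region, 0 were called by edgeR, DESeq2 or limma-voom, and 1 was lower at an unadjusted p under 0.05. This was TRIM39, with a log2 fold change of -0.27 ± 0.11 and an edgeR adjusted p of 0.149, named after its values were seen. TRIM27 in that region had 0.03 ± 0.07. Of all tested genes 11.6% were called by edgeR, and the difference from that share was not tested.

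A pair of members varied with the library, and they were picked out after their values were seen. TRIM46, which organises microtubules at the start of the axon, had 10.4, 12.3 and 11.8 CPM with vector and 7.97, 7.22 and 12.3 with TFCP2L1. Its value went on the log2 scale from -0.32 (edgeR adjusted p 0.272) to -0.60 (0.00825) without TFCP2L1 replicate 3, the library with the highest mitochondrial share. TRIM74 had 5.66, 15.1 and 11.1 CPM against 6.46, 5.43 and 13.3, and 91.7% of its 50-base words occur in other genes, chiefly TRIM73. Its highest values fell in vector replicate 2 and TFCP2L1 replicate 3, the libraries with the highest mitochondrial share of their groups. The part of the mitochondrial share in these values was not tested.

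Leaving out each library in turn left TRIM22, TRIM14, TRIM5 and TRIML2 called every time. For TRIM5 the adjusted p then ran from 0.00519 to 0.0460, and for TRIML2 it reached at most 0.000738. The other 6 called members each lost their call in at least 1 of the 6 fits but kept their direction in all. Over all genes, 298 were called higher without vector replicate 1 and 313 without vector replicate 3, against 668 with all libraries. The number of members called higher ran from 3 to 9 and the number called lower from 1 to 3.

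**Figure D5:**
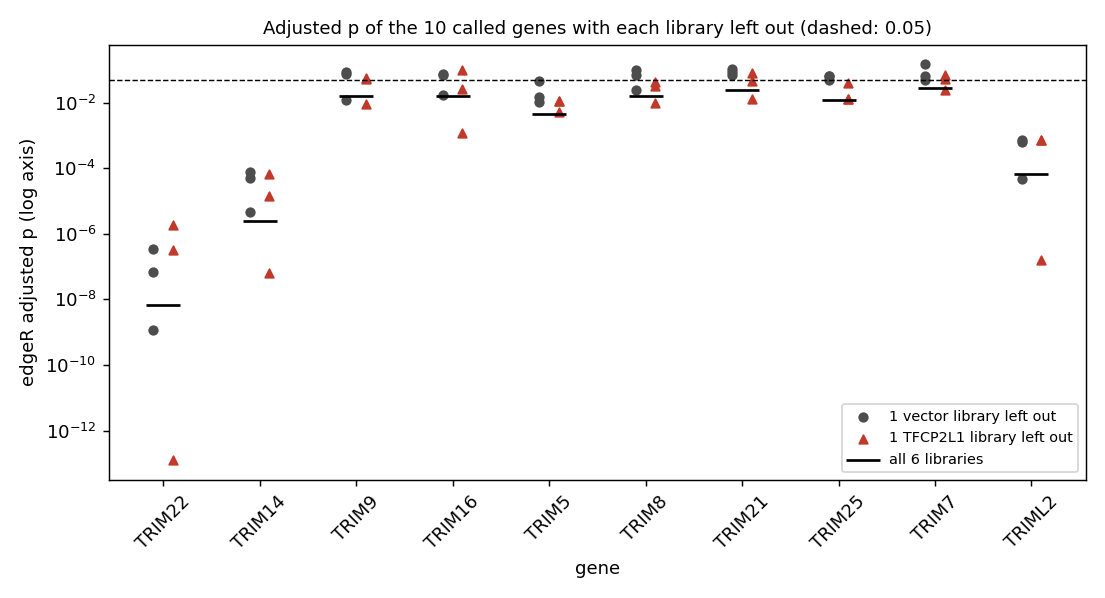
edgeR adjusted p of the 10 called members on a log axis with 1 vector library (circles) or 1 TFCP2L1 library (triangles) left out, a short line for all 6 libraries and a dashed line at 0.05. TRIM22, TRIM14, TRIM5 and TRIML2 stay past the threshold in all 6 fits.

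TRIM proteins that carry other symbols were read as a comparison. MEFV, also called TRIM20 or pyrin and the sensor mutated in familial Mediterranean fever, had 558, 599 and 690 reads with vector and 122, 126 and 122 with TFCP2L1. Its log2 fold change was -2.36 ± 0.14 with an edgeR adjusted p of 1.67e-08. MID1, also called TRIM18 and a microtubule-bound ligase, had 26.7, 26.5 and 26.2 CPM against 30.8, 36.3 and 32.5. Its log2 fold change of 0.33 ± 0.09 had an edgeR adjusted p of 0.0347, and the call was lost without any 1 of the vector libraries or without TFCP2L1 replicate 2. PML (TRIM19), the scaffold of nuclear bodies, had 170 ± 10.02 and 167 ± 28.0 CPM, and MID2 (TRIM1) a log2 fold change of -0.10 ± 0.12.

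Interferon-response genes outside the family were read beside these. Of 44 tested, 31 were higher and 2 lower (IFI44 and DDX60), 75% in all, beside 11.6% of all tested genes. The median log2 fold change of the 44 was 0.58. XAF1 had 0 reads with vector and 218 with TFCP2L1. IFITM1 and MX2, which block viral entry and nuclear import, had log2 fold changes of 5.23 ± 0.16 and 5.19 ± 0.34. BST2, which tethers budding virus, had 4.27 ± 0.24. TRIM22 at 2.75 was below these 3.

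Targets of p53 were also listed. Of 27 tested, 10 were lower and 0 higher by edgeR, 37% called beside 11.6% of all tested genes. DESeq2 and limma-voom also called 0 higher, and 1 gene was higher at an unadjusted p under 0.05. The median log2 fold change was -0.27. DDB2, a DNA damage sensor, had -0.96, the death gene PMAIP1 -0.71, TP53INP1 -0.69 and the cell cycle inhibitor CDKN1A -0.62. Of the 7 tested p53-linked members of the family, 3 had a negative log2 fold change, TRIML2 among them. The other 4, with TRIM22 and TRIM8 among them, had a positive one.

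Ubiquitin-conjugating enzymes, which hand ubiquitin to ligases such as the TRIM proteins, were read as a further comparison. Of 20 tested, 1 was lower (UBE2H, log2 -0.27, edgeR adjusted p 0.0225) and 0 were higher by edgeR, DESeq2 or limma-voom, with 1 higher at an unadjusted p under 0.05. UBE2Z had -0.18 with an adjusted p of 0.0990. The median log2 fold change of the list was 0.01. In all, 5% of the list was called, beside 11.6% of all tested genes, and the difference was not tested.

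The 11 members left out of the test were TRIM15, TRIM17, TRIM29, TRIM31, TRIM34, TRIM50, TRIM54, TRIM63, TRIM67, TRIM72 and TRIM73. TRIM73 had the most reads among them, 36 over the 6 libraries. The muscle members TRIM54 and TRIM63 had at most 0.0266 and 0.213 CPM in any library, unlike their class partner TRIM55.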

How the data were processed

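RNA-seq was read from 3 vector and 3 TFCP2L1 libraries of TPC1. Per the labels' protocols, RNA was taken with TRIzol and libraries made with the VAHTS Universal V6 kit. Per the submitters' processing notes, fastp, HISAT2 and HTSeq were used with GRCh38.p13, without versions. How strand was handled in counting is not given in the sources used. The authors deposited whole-number read counts for 21173 genes. They also deposited FPKM values, which are those counts scaled by 1 length per gene and the library total.

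Counts were tested with edgeR 4.0.16 in R 4.3.3: filterByExpr kept 14431 genes, libraries were scaled by TMM, and the quasi-likelihood F-test was robust. Adjusted p-values are Benjamini-Hochberg over all tested genes, with a threshold of 0.05. The standard error is the log2 fold change over the square root of F. The exact two-sided permutation test of 3 against 3 cannot go below 0.1 and was not used. On simulated data of 14227 genes the test found 32.7% of 1.3-fold changes, 65.3% of 1.5-fold, 91.8% of 2-fold and 98.0% of 4-fold ones. Of its calls there, 6.62% were false. At each fold 49 changed genes were scored. That is far fewer in all than the 1670 genes called in the data, which makes the adjustment stricter in the simulation. Alternatives used DESeq2 1.42.0 and limma 3.58.1. Positions and overlaps come from GENCODE v29 on GRCh38, which matched all 57 members.

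Named genes are the called members, TRIM22 and TRIML2, the 8 with the highest FPKM, the interferon-linked and 11p15.4 members with a read, the smallest and largest unadjusted p that missed the threshold, the TRIM proteins under other symbols, and up to 4 called genes per comparison list. Some members were named outside this rule to describe a list, class, motif or ranking, among them TRIM24, TRIM13, TRIM33, TRIM2, TRIM71, TRIM44 and TRIM11. Members and lists were chosen with earlier results of these data known.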

Additional observations from a re-analysis of the deposited data

How the results depend on the processing

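TRIM22, TRIM14, TRIM5 and TRIML2 kept their call and direction under all 17 alternatives run. All 10 calls were kept under DESeq2 size factors, upper-quartile scaling, library totals only, no filter, a mean of at least 1 CPM, DESeq2 and limma-voom. With limma on log2(FPKM + 1) TRIM16 and TRIM7 lost their call, and on log2(FPKM + 0.1) TRIM9 did too. Over 25 of the named members and these alternatives, 373 of 424 values kept their side of the threshold and direction. Of the rest, 29 lost significance, 11 gained it and 11 changed sign. The number of members called lower was 4 under DESeq2, and 1 under each FPKM fit. Leaving out each library in turn gave 3 to 9 members higher and 1 to 3 lower, and 298 to 766 genes higher and 621 to 1106 lower over all genes. It also gave 0 to 1 p53 targets higher, 0 to 1 conjugating enzymes lower and 0 to 1 TRIM proteins under other symbols higher. The number of conjugating enzymes lower was 0 under both FPKM fits. An alternative chosen after seeing the data left out vector replicate 2 and TFCP2L1 replicate 3 together, the libraries with the highest mitochondrial share of each group. TRIM21 (0.0525) and TRIM7 (0.105) then lost their call by adjusted p, 0 conjugating enzymes were lower and 0 TRIM proteins under other symbols were higher. The cause of these changes was not tested.

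With the replicate number as a block, 5 members were higher, and 328 genes were higher and 649 lower over all genes. TRIM21, TRIM25 and TRIM8 lost their call (adjusted p 0.0831, 0.0583 and 0.0547), 0 conjugating enzymes were lower and 0 TRIM proteins under other symbols were higher. Same-numbered libraries deviated with correlations of 0.07, -0.16 and -0.12, so the numbers were not taken as pairs.

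The values that changed sign belonged to members that were not called. TRIM74, at -0.34 with all libraries, was the 1 of them that was not near 0. TRIM65 was 0.0189 with library totals only, 0.0161 on log2(FPKM + 1), 0.0182 on log2(FPKM + 0.1) and 0.0640 without vector replicate 2 and TFCP2L1 replicate 3 together. With each library left out, it ran from -0.0522 to 0.0340, TRIM68 from -0.0353 to 0.0833, and TRIM74 from -0.8338 to 0.0038. TRIM56 reached 0.0348 when TFCP2L1 replicate 2 was left out. The cause was not tested. In simulated data 32.7% of 1.3-fold changes were found. Fewer genes were changed there than were called here, so that share need not hold for these data, and small changes may be missed.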
